A study of Mus musculus with 8 samples.

Results

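The genes described here are 7 receptors for complement fragments, formylated peptides, chemerin and lipid mediators: C5ar1, C3ar1, Fpr1, Fpr2, Ptafr, Cmklr1 and Ltb4r1. They were taken by symbol, from probe sets annotated to exactly 1 of these names, and 6 of the 7 were measured among 18193 genes. No probe set used here carried Fpr1, a formyl peptide receptor, as its single symbol, and it was not analysed. The 6 measured receptors are covered by 11 probe sets, groups of array probes that each report 1 stretch of a transcript. Where a gene has several, its value comes from the brightest by mean level on the 8 arrays, and the others serve as a check. Fpr2 and Ltb4r1 have 1 probe set each and so no such check.

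The cells were mouse bone marrow-derived macrophages, differentiated with M-CSF. Tpl2, the kinase encoded by Map3k8, passes toll-like receptor signals to MEK and ERK. There were 4 groups of 2 Affymetrix arrays: Tpl2 wild type and Tpl2 deficient, each either unstimulated or stimulated with LPS (Escherichia coli 0111:B4, 1 μg/mL), the toll-like receptor 4 ligand. The labels give neither the LPS time of these arrays, the mice's age or strain, nor how the deficient allele was made. Replicates are labelled biological, but separate mice are not stated, so the tests speak of the spread between these samples alone.

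These receptors are G protein-coupled receptors of myeloid cells. C5ar1 and C3ar1 bind C5a and C3a, the fragments released when complement is activated. Fpr2 binds formylated and host peptides such as annexin A1 and serum amyloid A, Cmklr1 binds chemerin, Ptafr binds platelet-activating factor, and Ltb4r1 binds leukotriene B4. In phagocytes they act mainly through inhibitory G proteins, whose released subunits activate phosphoinositide 3-kinase gamma, phospholipase C beta and Rac, and steer the cell up a gradient. Receptor kinases and arrestins then switch the receptors off.

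Levels below are deposited log2 RMA intensities, in which a step of 1 is a 2-fold step. Differences are log2 changes ± standard error from limma fitted to all 8 arrays and all genes. The threshold was an adjusted p (Benjamini-Hochberg) under 0.05. Array medians lay between 6.48 and 6.53. There are no detection calls, so where the lower of the group means is under the array median the fold is written "at least", and where both are, no fold is given.

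The targeted gene, Map3k8, read lower in deficient than in wild-type cells with and without LPS. Its levels were 9.27 and 9.28 in unstimulated wild type, 8.32 and 8.23 in unstimulated deficient cells, 11.01 and 10.91 in LPS-treated wild type, and 9.83 and 10.09 in LPS-treated deficient cells. The labels do not place the deletion relative to its probe set. Arrays of a group correlated at 0.994 to 0.997, and the median SD of a gene was 0.129 in the LPS-treated deficient group against 0.0649 to 0.0662 elsewhere. The fit uses 1 spread for all groups, so errors that involve that group may be too small. Centring arrays on the spike-in controls moved the median change of all genes from 0.04 to -0.09 for LPS in wild type, from 0.00 to -0.20 for LPS in deficient cells, and from -0.00 to 0.10 for genotype at rest. It moved the share of calls that were falls or lower values from 59.2% to 74.9%, from 61.8% to 78.0% and from 69.2% to 43.2% in these comparisons, and from 33.5% to 47.7% for the difference of LPS responses. Of 13 macrophage markers measured, 1, Cd163, was under the array median in every group. Csf1r, Adgre1, Cd68 and Lyz2 had group means of 13.52 or more. Others were dimmer, such as Itgam at 8.54 to 9.43 and Mertk at 10.26 to 11.55.

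Under LPS, C5ar1, C3ar1 and Cmklr1 were lower in Tpl2-deficient than in wild-type macrophages, whereas Fpr2, Ptafr and Ltb4r1 did not pass. The lower levels were 2.11-fold for C5ar1, 1.67-fold for C3ar1 and at least 2.76-fold for Cmklr1. Thus 3 of the 6 measured receptors were lower and 0 higher, while of all genes 5.73% were lower and 8.01% higher. The median change of the 6 was -0.44, against 0.02 over all genes.

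C5ar1, the C5a receptor, read 12.04 and 11.79 in the LPS-treated wild-type arrays and 10.84 and 10.85 in the deficient ones. The deficient level is below that of unstimulated wild-type cells, 11.23 and 11.16. The difference was -1.08 ± 0.12 (limma, adjusted p = 9.33e-05). Its other probe set, 1422190_at, read 11.79 and 11.61 against 10.24 and 10.53, a difference of -1.31 ± 0.13 (limma over all probe sets, adjusted p = 3.16e-05).

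C3ar1, the C3a receptor, read 13.65 and 13.71 in wild type with LPS and 12.90 and 12.97 in deficient cells with LPS. The deficient arrays are the lowest of the 8. The difference was -0.74 ± 0.10 (limma, adjusted p = 0.000337). Its other probe sets gave smaller differences, -0.49 for 1419483_at and -0.39 for 1442082_at, and both passed (limma over all probe sets, adjusted p = 0.00746 and 0.0264).

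Cmklr1, the chemerin receptor, read 7.41 and 7.06 in wild type with LPS and 5.71 and 5.83 without Tpl2. Only the LPS-treated wild-type arrays lie above the array medians. The difference was -1.47 ± 0.17 (limma, adjusted p = 0.000173). The second probe set, 1426072_at, stayed under the array medians in all groups, at 4.99 ± 0.01 against 4.59 ± 0.02 (SD, n = 2), and its difference of -0.40 passed narrowly (limma over all probe sets, adjusted p = 0.045).

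**Figure D1:**
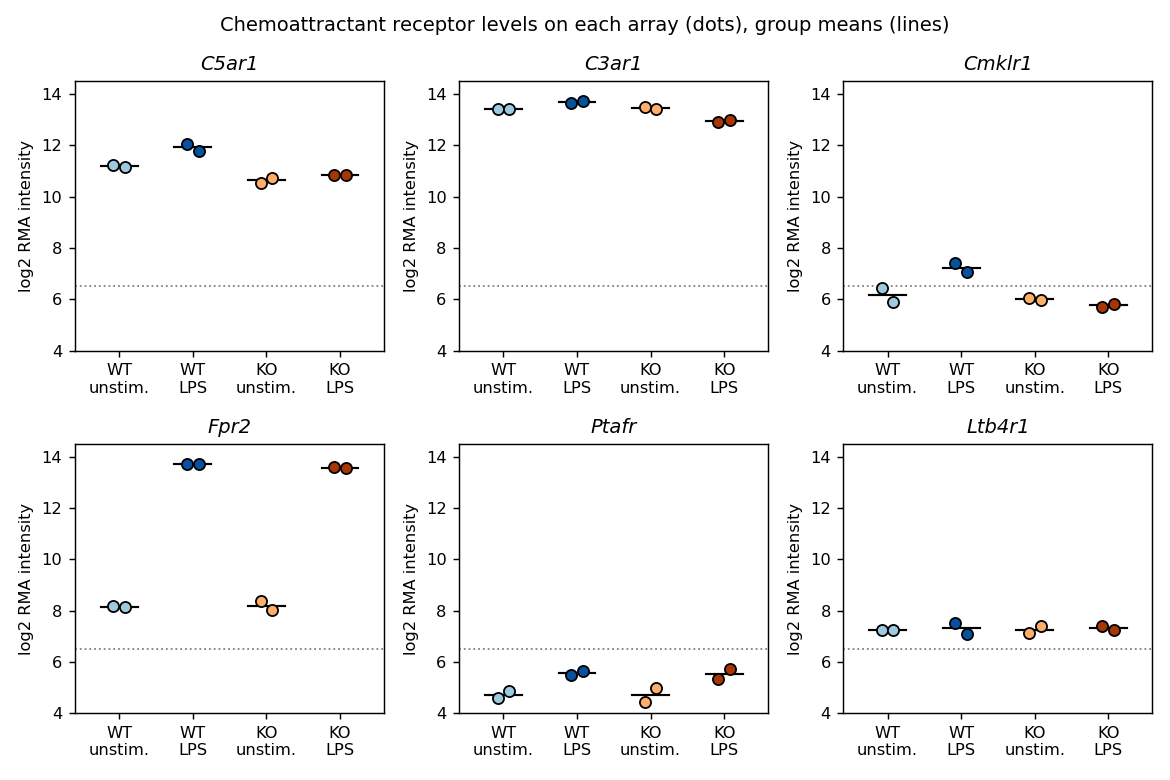
Log2 RMA intensity of the 6 measured receptors on each array, in panels by gene, with groups by genotype (WT, Tpl2 wild type; KO, Tpl2 deficient) and treatment on the horizontal axis. Dots are arrays, lines are means of 2 arrays, and the dotted line is the mean array median. C5ar1, C3ar1 and Cmklr1 sit lower with LPS in KO than in WT, the Fpr2 means rise from 8.16 to 13.70 in WT and from 8.20 to 13.56 in KO, and Ptafr stays under the dotted line.

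The sequences upstream of the receptors' RefSeq start sites are shown for the 3 genes that were lower together and for Fpr2, which did not pass. All 7 receptors matched the RefSeq promoter table (GRCm38.p6). Each window holds the 250 bases before the start, 5′ to 3′ on the gene's strand, and capitals mark every match found. The windows lie at chr7:16259339-16259588 (minus strand) for C5ar1, chr6:122856158-122856407 (minus) for C3ar1, chr5:113643604-113643853 (minus) for Cmklr1 and chr17:17887574-17887823 (plus) for Fpr2.
C5ar1: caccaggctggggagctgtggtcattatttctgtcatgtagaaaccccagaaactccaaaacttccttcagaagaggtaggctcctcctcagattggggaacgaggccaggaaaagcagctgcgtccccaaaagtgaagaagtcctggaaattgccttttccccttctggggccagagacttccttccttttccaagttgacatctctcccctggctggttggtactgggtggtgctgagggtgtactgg
C3ar1: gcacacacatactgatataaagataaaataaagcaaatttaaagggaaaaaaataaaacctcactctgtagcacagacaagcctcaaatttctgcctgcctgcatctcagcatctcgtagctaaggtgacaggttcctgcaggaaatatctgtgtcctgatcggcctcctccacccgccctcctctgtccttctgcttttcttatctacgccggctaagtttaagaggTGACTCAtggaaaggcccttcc
Cmklr1: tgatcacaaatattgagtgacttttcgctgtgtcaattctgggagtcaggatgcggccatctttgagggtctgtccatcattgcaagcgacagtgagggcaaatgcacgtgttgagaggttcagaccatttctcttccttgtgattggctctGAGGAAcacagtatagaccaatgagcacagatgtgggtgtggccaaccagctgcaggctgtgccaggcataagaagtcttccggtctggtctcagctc
Fpr2: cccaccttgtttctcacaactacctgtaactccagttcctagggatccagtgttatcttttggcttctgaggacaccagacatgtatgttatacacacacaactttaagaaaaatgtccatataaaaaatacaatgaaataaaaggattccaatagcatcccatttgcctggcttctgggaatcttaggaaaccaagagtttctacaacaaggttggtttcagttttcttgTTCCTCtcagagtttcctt

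The motifs searched on both strands were AP-1 (TGANTCA), CRE (TGACGTCA), C/EBP (TTGCNNAA), PU.1 (GAGGAA), Egr (GCGNGGGCG), ISRE and NF-kB (these by name). The C3ar1 window holds 1 AP-1 match, ending 16 bases before the start, and 6.75% of 32817 windows of that length hold one. Cmklr1 and Fpr2 each hold 1 PU.1 match, as do 23.3% of windows, in Fpr2 on the opposite strand and ending 14 bases before the start. Ptafr and Ltb4r1, whose windows are not shown, hold 1 PU.1 match each, and Fpr1 none of the motifs. None of the 7 motifs is in the C5ar1 window. The matches were not overlapping and are descriptions of letters, not of binding.

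The other receptors differed by less. Fpr2 read 13.70 and 13.71 with LPS in wild type, against 13.58 and 13.54, a difference of -0.15 (95% interval -0.41 to 0.12; limma, adjusted p = 0.541). The arrays do not overlap, but the gap is small beside its LPS rise. For Ltb4r1, the leukotriene B4 receptor, the arrays overlap: 7.54 and 7.11 against 7.42 and 7.26 (0.02, 95% interval -0.31 to 0.34; limma, adjusted p = 0.971). Those of Ptafr overlap too, at 5.49 and 5.66 against 5.33 and 5.72 (-0.05, 95% interval -0.46 to 0.36; limma, adjusted p = 0.922), and both group means are under the array medians. A genotype difference within these intervals cannot be seen with 2 arrays a group.

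**Figure D2:**
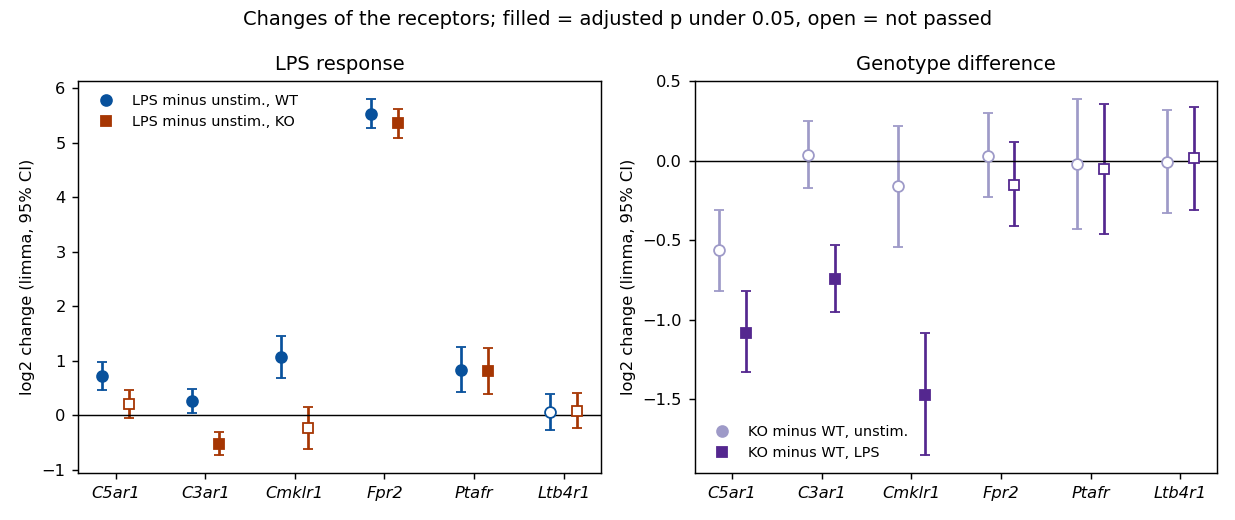
Log2 change of each receptor with its 95% confidence interval from limma, for the LPS response in each genotype (left) and the deficient minus wild-type difference in each treatment (right). Filled symbols passed at an adjusted p under 0.05. At right, the C5ar1, C3ar1 and Cmklr1 values with LPS lie at -1.08, -0.74 and -1.47, and the intervals of the other receptors include 0.

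At rest, none of the 6 receptors passed between the genotypes (limma), while 0.154% of all genes were higher and 0.346% lower in deficient cells. The nearest to passing was C5ar1, at 11.23 and 11.16 in wild type and 10.52 and 10.73 in deficient cells. Its difference of -0.56 ± 0.12 missed the threshold (limma, adjusted p = 0.0753). It passed under 5 of 19 alternatives (limma, adjusted p from 0.0226 to 0.0486). These were centring arrays on their medians, array weights, a mean-variance trend, averaged probe sets and a test of only the brighter genes. Under the rest it did not pass, among them spike-in centring, repeated quantile normalization and its other probe set (-0.56; limma over all probe sets, adjusted p = 0.112). The other 5 receptors differed by 0.16 or less in either direction. C3ar1 was at 13.40 and 13.42 in wild type against 13.48 and 13.43, and Cmklr1 at 6.45 and 5.88 against 6.04 and 5.97.

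In wild-type macrophages LPS raised Fpr2 46.6-fold on its only probe set, from 8.19 and 8.14 to 13.70 and 13.71. The change of 5.54 ± 0.12 passed (limma, adjusted p = 5.41e-11), and the groups are far apart. C5ar1 rose 1.65-fold (0.72 ± 0.12; limma, adjusted p = 0.000291), and Cmklr1 rose at least 2.10-fold, from 6.45 and 5.88 (1.07 ± 0.17; limma, adjusted p = 0.000296). The dimmer Cmklr1 probe set, 1426072_at, differed by 0.16 and did not pass (limma over all probe sets, adjusted p = 0.293). Ptafr, the platelet-activating factor receptor, read 4.58 and 4.89 without and 5.49 and 5.66 with LPS, a rise of 0.84 ± 0.19 within levels under the array medians (limma, adjusted p = 0.00283).

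C3ar1 also passed in wild type, from 13.40 and 13.42 to 13.65 and 13.71 (0.26 ± 0.10; limma, adjusted p = 0.0385), but its direction depends on the probe set. Probe set 1419483_at fell by 0.32 (limma over all probe sets, adjusted p = 0.0219), and 1442082_at changed by -0.15 without passing. The rise passed under 7 of 20 alternatives. It was lost with repeated quantile normalization (0.17), spike-in centring (0.13), median centring (0.25, adjusted p = 0.0544) and the replicate number as a block (adjusted p = 0.0535), and without any 1 array of wild type or of unstimulated deficient cells (0.23 to 0.29, adjusted p = 0.0635 to 0.176). Ltb4r1 did not pass, at 7.26 and 7.26 without and 7.54 and 7.11 with LPS (0.06, 95% interval -0.27 to 0.39; limma, adjusted p = 0.743).

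By count, 5 of the 6 receptors rose with LPS in wild type and 0 fell, where 21.3% of all genes rose and 30.9% fell. Their median change was 0.78, against 0.04 over all genes. The C3ar1 probe sets differ in direction and those of Cmklr1 in call, and Ptafr stayed under the array medians.

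In deficient macrophages Fpr2 rose 41.2-fold, from 8.37 and 8.02 to 13.58 and 13.54 (5.36 ± 0.12; limma, adjusted p = 9.3e-11). Ptafr rose from 4.44 and 4.99 to 5.33 and 5.72 (0.81 ± 0.19; limma, adjusted p = 0.00417), again under the array medians. That call was lost without Tpl2-deficient unstimulated replicate 1 (0.54, adjusted p = 0.0522) or without Tpl2-deficient LPS replicate 2 (0.62, adjusted p = 0.0556).

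C3ar1 fell 1.43-fold in deficient cells, from 13.48 and 13.43 to 12.90 and 12.97 (-0.52 ± 0.10; limma, adjusted p = 0.000948). Here all 3 of its probe sets fell. C5ar1 went from 10.52 and 10.73 to 10.84 and 10.85 and did not pass (0.21, 95% interval -0.04 to 0.47; limma, adjusted p = 0.178). Cmklr1 went from 6.04 and 5.97 to 5.71 and 5.83 and did not pass either (-0.23, 95% interval -0.62 to 0.15; limma, adjusted p = 0.322). In all, 2 receptors rose and 1 fell, against 16.0% and 25.8% of all genes, and the median change was 0.15.

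The difference between the LPS responses was tested directly. It passed for C3ar1 (-0.78 ± 0.14; limma, adjusted p = 0.00481) and for Cmklr1 (-1.31 ± 0.25; limma, adjusted p = 0.00774), which is 2 of 6 lower and 0 higher. Over all genes 2.87% were lower and 5.72% higher. For C5ar1 the difference was -0.51 ± 0.17 and missed the threshold (limma, adjusted p = 0.0857), but its other probe set gave -0.75 and passed (limma over all probe sets, adjusted p = 0.0275). The C5ar1 difference passed under 4 of 18 alternatives, that probe set among them, and ranged from -0.75 to -0.39. It also passed with averaged probe sets (-0.63), with only the brighter genes tested and with a variance trend (limma, adjusted p = 0.0203, 0.0428 and 0.0435). The remaining C3ar1 probe sets gave -0.37 and -0.43, and the remaining Cmklr1 probe set -0.33, none of which passed (adjusted p = 0.171, 0.103 and 0.3). For Fpr2, Ptafr and Ltb4r1 the values were -0.18, -0.03 and 0.02, with 95% intervals from -0.55 to 0.19, -0.61 to 0.56 and -0.44 to 0.49. The genotype comparison under LPS and the LPS responses share arrays, so their values are not independent.

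**Figure D3:**
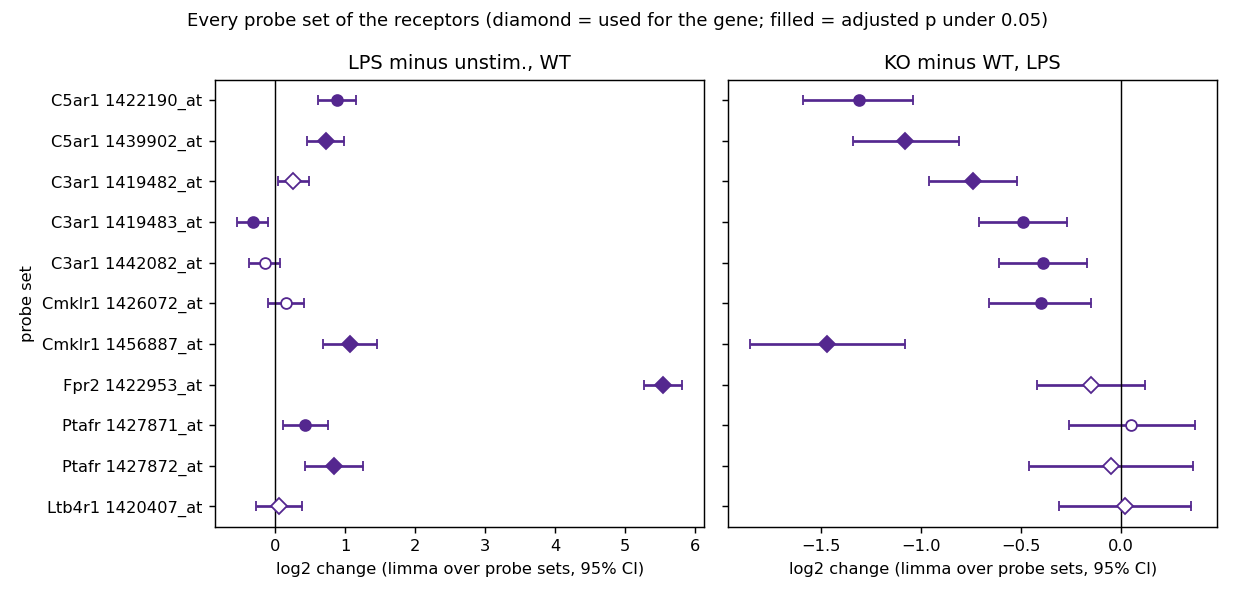
Log2 change with 95% confidence interval for each of the 11 probe sets of the receptors, fitted over all probe sets: LPS minus unstimulated in wild type (left) and deficient minus wild type with LPS (right). Diamonds are the probe sets used for a gene and filled symbols passed. At right both C5ar1, all 3 C3ar1 and both Cmklr1 probe sets lie below 0 and passed. At left the C3ar1 probe sets lie on both sides of 0.

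Several technical and cell-type measures moved with these groups. The 3′ minus 5′ probe set difference of Actb, which grows as RNA degrades, was 0.46 and 0.55 in LPS-treated wild-type arrays and 0.61 and 0.68 in deficient ones. At rest it was 0.81 and 0.67 against 0.87 and 0.90. The same measure of Gapdh was -0.09 and -0.07 against 0.05 and 0.10 with LPS. At rest the Gapdh values overlapped, at 0.09 and -0.03 in wild type and 0.07 and 0.06 in deficient cells. Of 12 neutrophil markers, which matter because neutrophils carry several of these receptors, 8 were under the array median in every group, and the mean level of the list was 7.11 to 7.17 with LPS in wild type and 6.94 to 7.01 in deficient cells. Only S100a8 of these 12 differed between the genotypes under LPS, with means of 10.17 and 9.03. Of all genes 8.01% were higher and 5.73% lower in that comparison. With LPS in wild type 7 of the 12 rose and 1 fell, where 21.3% of all genes rose and 30.9% fell. In deficient cells 2 rose and 1 fell, against 16.0% and 25.8% of all genes. Of the macrophage markers under LPS, Itgam and Msr1 were lower and Mertk was higher in deficient cells, and 10 of 13 did not pass. The shares of all genes are again 5.73% lower and 8.01% higher. The part of these measures in the receptor differences was not tested. In RNA from whole cultures, fewer cells that carry a receptor cannot be told apart from less receptor RNA per cell.

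Among related chemoattractant receptors, 14 of 19 listed were measured. Under LPS 1 was higher and 3 were lower in deficient cells (median change -0.00), against 8.01% and 5.73% of all genes. P2ry6, a receptor for the nucleotide UDP, was 2.67-fold lower, with means of 11.80 in wild type and 10.38 in deficient cells (-1.42 ± 0.11; limma, adjusted p = 9.34e-06). Cysltr1, a receptor for cysteinyl leukotrienes, was 2.26-fold lower. LPS raised Cysltr1 from 8.51 to 9.70 in wild type, whereas it was 8.64 and 8.53 in deficient cells, and the difference of LPS responses passed (-1.30 ± 0.15; limma, adjusted p = 0.000337). S1pr1, a sphingosine 1-phosphate receptor, differed by -0.64 between group means of 6.48 and 5.84, both under the array medians, a call lost without wild-type LPS replicate 2 (-0.52, adjusted p = 0.0539). Gpr183, the oxysterol receptor, was at least 2.55-fold higher in deficient cells, since its LPS fall was -3.56 in wild type and -2.05 in deficient cells.

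The largest LPS rises of this list passed in both genotypes. Ccrl2, which binds chemerin but is not known to signal, rose 15.3-fold in wild type and 17.1-fold in deficient cells, and Lpar1, a lysophosphatidic acid receptor, rose 9.57-fold and 8.93-fold. Ccrl2 levels with LPS were 13.69 and 13.91, a genotype difference of 0.22 that did not pass. LPS raised 6 and lowered 3 of the 14 in wild type, where 21.3% of all genes rose and 30.9% fell. In deficient cells it raised 5 and lowered 3, against 16.0% and 25.8% of all genes. The formyl peptide receptor relatives Fpr-rs3 and Fpr-rs4 did not pass in any comparison. Their values with LPS differed by 0.28 and 0.25 in wild type, and Fpr-rs3 stayed under the array medians. At rest 0 of the 14 passed (limma), where 0.154% of all genes were higher and 0.346% lower in deficient cells.

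Of the ligands and the enzymes that make or break ligands, 25 of 27 were measured. In wild type LPS raised 9 and lowered 9, where 21.3% of all genes rose and 30.9% fell. In deficient cells it raised 8 and lowered 6, against 16.0% and 25.8% of all genes. Saa3, which encodes a serum amyloid A protein, rose 20.5-fold and 24.8-fold. Cfb, complement factor B, rose at least 24.5-fold and at least 28.9-fold, and the iron-binding protein gene Lcn2 at least 57.6-fold and at least 48.4-fold. Rarres2, which encodes chemerin, and Hc, which encodes C5, did not pass in either genotype, and the Hc means of 5.08 to 5.28 are under the array medians.

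With LPS, 3 of these 25 genes were higher and 5 lower in deficient cells (median change -0.11), 8 in all. Of all genes 8.01% were higher and 5.73% lower. The 8 became 3 without either LPS-treated wild-type array, 4 without either unstimulated wild-type array and 5 without either unstimulated deficient array, 11 without Tpl2-deficient LPS replicate 2, and 4 to 5 with array weights, spike-in centring or only the arrays compared. Pla2g4a, the cytosolic phospholipase that frees arachidonic acid and the precursor of platelet-activating factor, was 2.57-fold lower, at 12.22 in wild type and 10.86 in deficient cells (-1.36 ± 0.10; limma, adjusted p = 4.39e-06). Its LPS rise was 11.7-fold in wild type and 4.31-fold in deficient cells. Lpcat1, a lysophosphatidylcholine acyltransferase, was 2.11-fold higher. Pla2g7, which breaks down platelet-activating factor, was 1.92-fold higher with LPS. At rest its means were 12.64 and 13.27, which did not pass (0.63; limma, adjusted p = 0.0539). Lcn2 was lower by -0.72, and this call was lost without either LPS-treated wild-type array or without Tpl2-deficient LPS replicate 2. At rest 0 of the 25 passed (limma), where 0.154% of all genes were higher and 0.346% lower in deficient cells. With spike-in centring, a variance trend or array weights, among other alternatives, 1 passed.

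Of 34 listed genes that carry the receptors' signal or switch it off, 32 were measured. Under LPS 6 were higher and 6 lower in deficient cells (median change -0.09), against 8.01% and 5.73% of all genes. These 12 became 17 with a variance trend and 11 with array weights or only the arrays compared. With only the brighter genes tested, 17 of 29 passed. Pik3cg, the catalytic subunit of phosphoinositide 3-kinase gamma, was 4.16-fold lower, with means of 9.30 and 7.24 (-2.06 ± 0.14; limma, adjusted p = 3.05e-06). Gna15, a G protein alpha subunit that links chemoattractant receptors to phospholipase C, was 3.17-fold lower, at 9.02 and 7.36. Rgs14, a regulator of G protein signalling, was 2.21-fold lower, and Rgs1, another of that family, was 2.99-fold higher, at 11.20 and 12.78. The differences of LPS responses passed for all 4: -2.16 ± 0.20 for Pik3cg, -1.40 ± 0.15 for Gna15, -1.05 ± 0.14 for Rgs14 and 1.69 ± 0.25 for Rgs1 (limma, adjusted p = 7.52e-05, 0.000259, 0.0011 and 0.00163).

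LPS itself raised 13 and lowered 11 of these 32 genes in wild type, where 21.3% of all genes rose and 30.9% fell. In deficient cells it raised 12 and lowered 11, against 16.0% and 25.8% of all genes. The arrestin gene Arrb1 fell 17.8-fold and 12.2-fold, and Arrb2 3.65-fold and 4.93-fold. Gnb4, a G protein beta subunit, rose 10.1-fold and 12.4-fold. Rgs2 fell 4.39-fold and 3.62-fold. At rest 0 of the 32 passed between the genotypes (limma), where 0.154% of all genes were higher and 0.346% lower in deficient cells. Under 6 alternatives 1 passed.

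**Figure D4:**
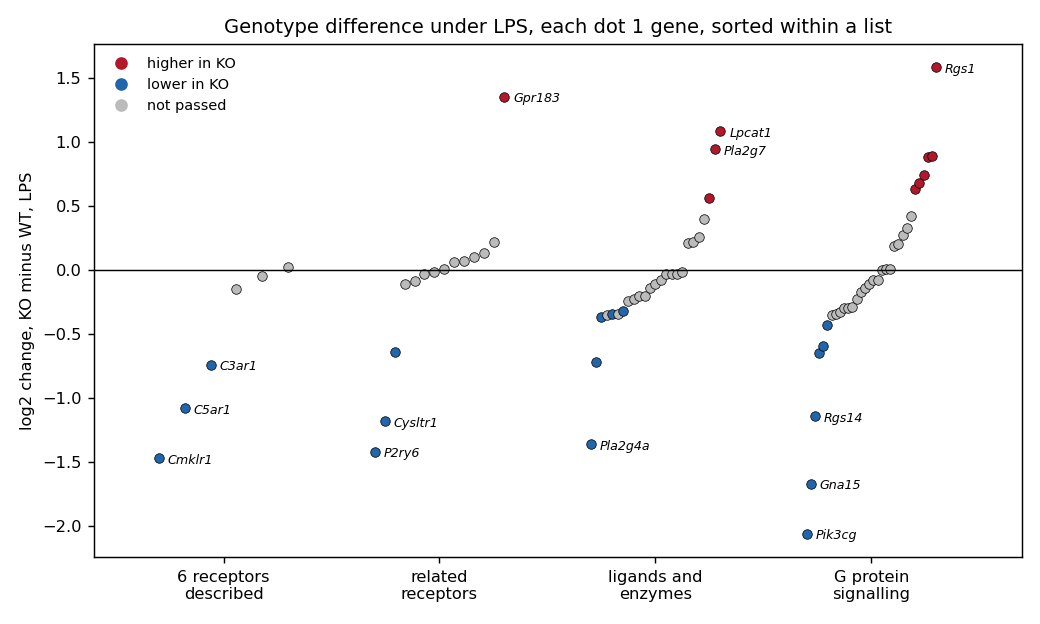
Deficient minus wild-type log2 change with LPS for the 6 measured receptors and 3 lists of related genes, 1 dot a gene, sorted within a list and coloured by whether it passed at an adjusted p under 0.05. Among the 6 measured receptors, those that passed are all lower, and Pik3cg at -2.06 and Rgs1 at 1.58 mark the ends of the signalling list.

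Profiles over the 8 arrays were compared with those of 8864 other genes above the median level, as the root mean square difference between profiles each centred on its own mean. This was done for the receptors whose group means span at least 1, namely C5ar1, Cmklr1 and Fpr2. Nearest to C5ar1 were Tubb6, a tubulin gene (0.0973), Cdkn2d (0.174) and Psd4 (0.177). Tubb6 had means of 9.63 and 10.32 in wild type and 8.96 and 9.36 in deficient cells, without and with LPS. Nearest to Cmklr1 were Slc25a28 (0.194), Ctu1 (0.196) and Il4ra, the interleukin 4 receptor (0.200), whose means were 9.47, 10.78, 9.27 and 9.16 in the same order. Nearest to Fpr2 were Isg20 (0.143), Gja1 (0.212) and the itaconate-producing enzyme gene Acod1 (0.219), which went from 9.80 to 14.83 in wild type and from 9.72 to 14.75 in deficient cells.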

How the data were processed

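The deposited values are log2 probe set intensities of 8 one-colour arrays, 2 in each group. Per the submitters' processing notes they were made with GCOS and RMA; versions and the chip definition file are not given in the sources used here. RMA subtracts background and equalises the arrays' distributions, which can hide a shift of most genes. No further normalization or low-value filter was applied. Of 45101 probe sets, 34945 carry 1 symbol (platform annotation) and are not controls, 932 carry several and 9211 none, which gave 18193 genes. Of these probe sets, 34741 matched RefSeq (GRCm38.p6), and 0 symbols changed. Arrays have no read depth, and their number limits precision.

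The fits used limma 3.58.1 under R 4.3.3 (lmFit, eBayes, two-sided) and 4 group means and no batch or replicate term, which leaves 4 residual and 6.87 prior degrees of freedom. There were 5 comparisons, adjusted over all genes. The fit was also run on simulated data. These had the same spread in every group, so they do not address the wider spread of the LPS-treated deficient arrays. Members, lists and tests were chosen with earlier results of these data known. Named were all members and, per list and comparison, up to 4 passing genes with the largest change, beside the nearest 3 profiles. Others (Cd163, Csf1r, Adgre1, Cd68, Lyz2, Itgam, Msr1, Mertk, S100a8, Fpr-rs3, Fpr-rs4, Rarres2 and Hc) were named after their values were seen. Mast cell and eosinophil, dendritic cell and lymphocyte markers were read as well: 1 of 10, 0 of 9 and 0 of 8 passed between genotypes under LPS. Of all genes 8.01% were higher and 5.73% lower there. Alternatives were other probe set rules, normalizations and centrings, a level filter, a variance trend, array weights, fewer arrays and a replicate block.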

Additional observations from a re-analysis of the deposited data

Results flagged for a closer look

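The LPS response of C3ar1 differed between the genotypes by the interaction term, by -0.78 (deficient minus wild type), with a change of 0.26 in wild type and -0.52 in deficient cells. That of Cmklr1 differed by -1.31, with changes of 1.07 and -0.23. For the interaction, the other probe sets of both genes lay in the same direction and did not pass. For LPS in wild type alone, the other C3ar1 probe sets went the opposite way, by -0.32 for 1419483_at and -0.15 for 1442082_at.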

How the results depend on the processing

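Over the alternatives that could test them, the lower levels of C5ar1, C3ar1 and Cmklr1 in deficient cells with LPS passed in 19 of 19, 20 of 20 and 18 of 18, with ranges of -1.31 to -0.95, -0.78 to -0.39 and -1.64 to -0.40. The Fpr2 rises passed in 18 of 18 in each genotype. The number of receptors that passed at rest went from 0 to 1 (C5ar1) with averaged probe sets, centring on array medians, a test of only the brighter genes, a variance trend and array weights. For LPS in wild type it went from 5 to 3 when only the brighter genes were tested, where 3 receptors were tested. Leaving out 1 array gave 4 to 5 for LPS in wild type, 2 to 3 for LPS in deficient cells, 0 at rest, 3 with LPS and 2 for the interaction. The replicate block gave 4, 3, 0, 3 and 2 in that order, losing C3ar1 in wild type (0.26, adjusted p = 0.0535). It changed no other call of a receptor. With it the ligand genes that passed went from 18 to 16 for LPS in wild type, from 8 to 6 between genotypes with LPS and from 0 to 1 at rest. Same-numbered arrays deviated together with correlations of -0.15 to 0.09 and share only a number. 

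Signs turned as follows. The wild-type LPS change of C3ar1 became -0.07 with the mean of all probe sets, -0.32 with 1419483_at and -0.15 with 1442082_at. All others concern changes that passed in none of the settings named. At rest C3ar1 became -0.01 with averaged probe sets and -0.13 with 1419483_at, Fpr2 -0.00 with median centring, and Ltb4r1 and Ptafr 0.09 and 0.08 with spike-in centring. Spike-in centring also turned Ltb4r1 to -0.07 for LPS in wild type, -0.12 for LPS in deficient cells and -0.05 for the interaction. The Ptafr interaction became 0.05 with the mean of all probe sets, 0.03 with repeated quantile normalization, 0.01 with median centring and 0.12 with 1427871_at, and its genotype difference with LPS 0.00 with averaged probe sets and 0.05 with 1427871_at. Leaving out 1 array, the values at rest ranged from -0.44 to 0.13 for Cmklr1, -0.14 to 0.20 for Fpr2 and -0.29 to 0.25 for Ptafr (0.13 without another array), and the highest for Ltb4r1 was 0.13. With LPS they ranged from -0.20 to 0.23 for Ltb4r1 (-0.07 without another array) and from -0.25 to 0.15 for Ptafr (0.03 likewise). The interaction ranged from -0.19 to 0.24 for Ltb4r1 and from -0.30 to 0.25 for Ptafr. The LPS change of Ltb4r1 ranged from -0.15 to 0.28 in wild type and from -0.05 to 0.22 in deficient cells. The cause was not tested.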
